A study of Mus musculus with 16 samples.

Results

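The protein components of the cytosolic ribosome were examined as a family of 86 genes in C2C12, an established mouse myoblast line whose cells form multinucleate myotubes in low serum. The members were the protein-coding genes present in both count tables of the study whose symbol begins with Rpl or Rps followed by a digit, a or p, without the Rps6k kinases and the pseudogenes. This rule took 86 of the 49585 genes in the tables. It found 46 proteins of the large subunit, 31 of the small subunit, 8 paralogs encoded by separate genes, and Rps19bp1, which encodes a protein that binds a small subunit protein and is not itself part of the ribosome.

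Each ribosome holds one copy of most of these proteins beside its ribosomal RNA, with several copies of the acidic stalk proteins Rplp1 and Rplp2, and their mRNAs are among the most abundant of a growing cell. Many of them start with a terminal oligopyrimidine tract, known as TOP, a stretch of C and T at the very start of the transcript through which mTORC1 controls their translation. AMPK, the energy-sensing kinase that was deleted in this study, restrains mTORC1, and muscle differentiation takes cells out of the cell cycle. The libraries measured the level of the mRNAs and not their translation.

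The study asked how AMPK and its phosphorylation of the DNA demethylase TET2 bear on muscle differentiation. In the AMPK experiment, wild-type C2C12 cells (WT) and cells in which CRISPR-Cas9 disrupted both catalytic subunit genes, Prkaa1 and Prkaa2 (AMPK-KO), were taken as myoblasts on day 0 (d0) and on day 8 of differentiation in low horse serum (d8), with 2 libraries per group. In the TET2 experiment every library was AMPK-/- and from day 0, and a FLAG-BirA tag had been placed at the endogenous Tet2 gene. TET2-WT kept serine at position 97, and TET2-S97E carried glutamate there to imitate the phosphorylated residue. The 8 libraries came from 2 clones per genotype with 2 replicates each. The paper names independent AMPK-KO lines beside its sequencing tracks, but the labels tie no AMPK-KO library to a line. They also do not say that replicates came from separate cultures, so the p-values measure the spread between these samples, which may be technical. Totals of assigned counts ran from 17883417 to 24663079 in the AMPK experiment and from 19801909 to 37790358 in the TET2 experiment. Levels were set within each experiment and are not compared across them.

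The edited genes were read first. The level of Prkaa1 in CPM, its count scaled to a common library size, was 158 and 158 in WT d0, 79.6 and 78.0 in AMPK-KO d0, 126 and 125 in WT d8, and 83.3 and 82.4 in AMPK-KO d8. The log2 fold change in AMPK-KO was −1.01 at d0 (adjusted p = 0.0116, edgeR quasi-likelihood test). Prkaa2 stood at 1.69 and 1.79 CPM in WT d0, 0.209 and 0.420 in AMPK-KO d0, 6.22 and 10.1 in WT d8, and 1.26 and 0.825 in AMPK-KO d8. Both genes were lower in each AMPK-KO library than in each WT library of the same day, and reads from disrupted alleles are still counted. Tet2 stood at 34.3, 22.6, 58.4 and 56.2 CPM in the TET2-WT libraries and at 12.9, 21.9, 7.88 and 22.0 CPM in TET2-S97E, a log2 difference of −1.40 that missed the threshold (edgeR adjusted p = 0.0621).

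The labelled cell type was checked against its markers. The 6 myoblast genes, among them Myod1 and Des, summed to between 1729 and 7464 CPM in every library. Des was the most abundant of them in most libraries, and Itga7 in both AMPK-KO d8 libraries and in TET2-WT clone 2 replicate 1. Markers of blood cells summed to at most 6.64 CPM, of endothelium to at most 13.0 CPM and of epithelium to at most 13.4 CPM. The 8 myotube genes, of which the skeletal actin Acta1 was the most abundant in all libraries but AMPK-KO d0 replicate 2 and both of TET2-WT clone 1, where Tnnt3 was, summed to 176 and 126 CPM in WT d0, 23.7 and 15.5 in AMPK-KO d0, 6387 and 9837 in WT d8, and 2156 and 11942 in AMPK-KO d8. In the TET2 experiment the same sum was 16.5 and 20.2 in TET2-WT clone 1, 44.4 and 312 in clone 2, 6252 and 2176 in TET2-S97E clone 1, and 2139 and 418 in clone 2. Every TET2-S97E library therefore held more myotube mRNA than every TET2-WT library although all were labelled as day 0 myoblasts. The 2 AMPK-KO d8 libraries differed widely from each other. From cell shape and myosin heavy chain protein, the paper reported that AMPK-KO cells had lost the ability to form myotubes. Myotube mRNA was nonetheless present in both AMPK-KO d8 libraries. Differentiation in AMPK-KO names here only the comparison of d8 with d0. In bulk RNA, fewer cells of a type and less RNA per cell cannot be told apart.

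The start sites of members that recur in the results are shown to let the pyrimidine tract of a TOP mRNA be seen beside starts without a long one. Each line holds 50 bases of the gene's strand from RefSeq (GRCm38.p6), 30 before the annotated start and 20 from it, and capitals mark the longest run of C and T that reaches within 5 bases of that start. Where RefSeq gives several starts, the one nearest to the GENCODE M21 gene start was used.
Rpl13a, chr7:45128726-45128775, minus strand: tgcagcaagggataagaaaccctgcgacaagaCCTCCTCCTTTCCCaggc
Rpl12, chr2:32961682-32961731, plus strand: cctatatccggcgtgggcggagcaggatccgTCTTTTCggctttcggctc
Rplp0, chr5:115559437-115559486, plus strand: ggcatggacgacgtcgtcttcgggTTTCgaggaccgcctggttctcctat
Rpsa, chr9:120127736-120127785, plus strand: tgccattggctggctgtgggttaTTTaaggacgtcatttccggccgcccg
Rps27, chr3:90213629-90213678, minus strand: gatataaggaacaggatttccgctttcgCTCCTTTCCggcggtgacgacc
Rps27l, chr9:66946056-66946105, plus strand: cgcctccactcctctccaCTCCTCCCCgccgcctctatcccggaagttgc
Rpl22, chr4:152325696-152325745, plus strand: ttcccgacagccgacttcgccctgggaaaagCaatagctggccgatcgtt
Rpl22l1, chr3:28805478-28805527, plus strand: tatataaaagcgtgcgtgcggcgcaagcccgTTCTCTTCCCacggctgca
Rpl34, chr3:130730379-130730428, minus strand: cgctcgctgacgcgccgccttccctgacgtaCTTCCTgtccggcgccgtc

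The run is 14 bases long at Rpl13a, 10 at Rpl22l1, 9 at Rps27 and at Rps27l, 7 at Rpl12, 6 at Rpl34, 4 at Rplp0 and 3 at Rpsa. At Rpl22 it is 1 base. The runs at Rps27l, Rplp0 and Rpsa end before the annotated start, so they are not part of the annotated mRNA. Runs that end before the start are included in the count that follows. RefSeq held a window for 66 members among 27025 genes. A run of at least 8 pyrimidines within 5 bases of the annotated start was present in 24 of the 66, or 36.4%, and in 11.4% of all genes, taking any of a gene's RefSeq starts, so that Rpl34 counts through a start other than the one shown. The strings that follow were counted in the same way. Within the 300 bases from 250 before to 50 after the start, read on both strands, CCGGAAG, the core letters of ETS-family sites such as that of GABP, stood in 39.4% of members and 9.93% of all genes. AAGATGG, the core of YY1 sites, stood in 15.2% and 7.28%, GGGCGG, the core of Sp1 sites, in 62.1% and 38.2%, and the TATA box letters TATAAA in 10.6% and 15.7%. None of these letter strings contains another. A match is a description of the annotated sequence, and the start used in C2C12 cells was not measured.

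Levels per transcript length spanned a wide range. In TPM, the count divided by the summed exon length of the gene and scaled to a common total, the most abundant members of the AMPK experiment were Rplp1 (5672), Rplp0 (3377), both proteins of the stalk that recruits elongation factors, then Rps15 (2948), Rpl8 (2876) and Rpl36 (2104). In the TET2 experiment the order began with Rplp1 (4525), Rplp0 (4314), Rps15 (3531), Rpl8 (2535) and Rpl4 (2364). The median over the 77 large and small subunit genes was 784 TPM in the AMPK experiment, with an interquartile range of 539 to 1134, and 741 TPM in the TET2 experiment, with a range of 450 to 1289. Leaving aside Rplp1 and Rplp2, proteins that are built into the ribosome in equal number were listed at unequal mRNA levels. Such levels also depend on the annotated exon length and on how reads were assigned.

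Many members share sequence with other genes, which bears on how reads are assigned. Of the 100-base windows of a member's principal transcript, a median of 31.2% occurred exactly in another annotated gene, 26 members shared at least 50% of their windows and 9 shared none. Rpl24, a protein of the large subunit, was listed at only 10 to 24 counts per library and 2.72 TPM in the AMPK experiment. Its processed pseudogene Gm9385 received 653 counts over the 8 libraries against 130 for Rpl24 itself. Rpl26 received 3113 counts while its copy Gm15772 received 39889, and Rps2 received 86712 against 83455 for Rps2-ps10. The levels of Rpl24, Rpl26 and Rps2 are thus uncertain, and they are not the only ones. In the AMPK experiment Rps3a1 received 29514 counts against 59642 in its copies, and Rpl29 received 7376 against 5796. Rpl13a shared 55.2% of its windows and was listed at 60.6 TPM there, although its copies received 219 counts against 5950. Across the 77 subunit genes the Spearman correlation between the shared share and TPM was 0.04 in the AMPK experiment and 0.09 in the TET2 experiment, a description over genes of the same libraries.

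Of the 8 paralogs, Rpl10l and Rpl39l were at 0 counts in all 16 libraries. Rpl3l, a form of Rpl3 known from adult striated muscle, had 0 to 8 counts per library in the AMPK experiment and 0 to 16 in the TET2 experiment. These 3 were left out as too low to test, and the other 83 members were tested in both experiments.

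The summed counts of the 86 genes took 3.40% and 4.41% of the library in WT d0, 5.43% and 4.80% in AMPK-KO d0, 2.38% and 2.64% in WT d8, and 3.22% and 2.84% in AMPK-KO d8. As means these were 3.90% ± 0.715, 5.12% ± 0.446, 2.51% ± 0.183 and 3.03% ± 0.269 (SD, n = 2). The d8 libraries lay below the d0 libraries of the same genotype, and the AMPK-KO libraries lay above the WT libraries of the same day, with no overlap in either case. In TET2-WT the share was 4.61% and 5.80% in clone 1 and 4.68% and 3.55% in clone 2, and in TET2-S97E it was 3.88% and 3.75% in clone 1 and 3.74% and 3.33% in clone 2. The genotypes averaged 4.66% ± 0.918 and 3.68% ± 0.241 (SD, n = 4). Here the groups overlapped, because replicate 2 of TET2-WT clone 2 lay within the TET2-S97E range. The ratio of large to small subunit counts stayed between 1.48 and 1.74 in all 16 libraries.

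**Figure D1:**
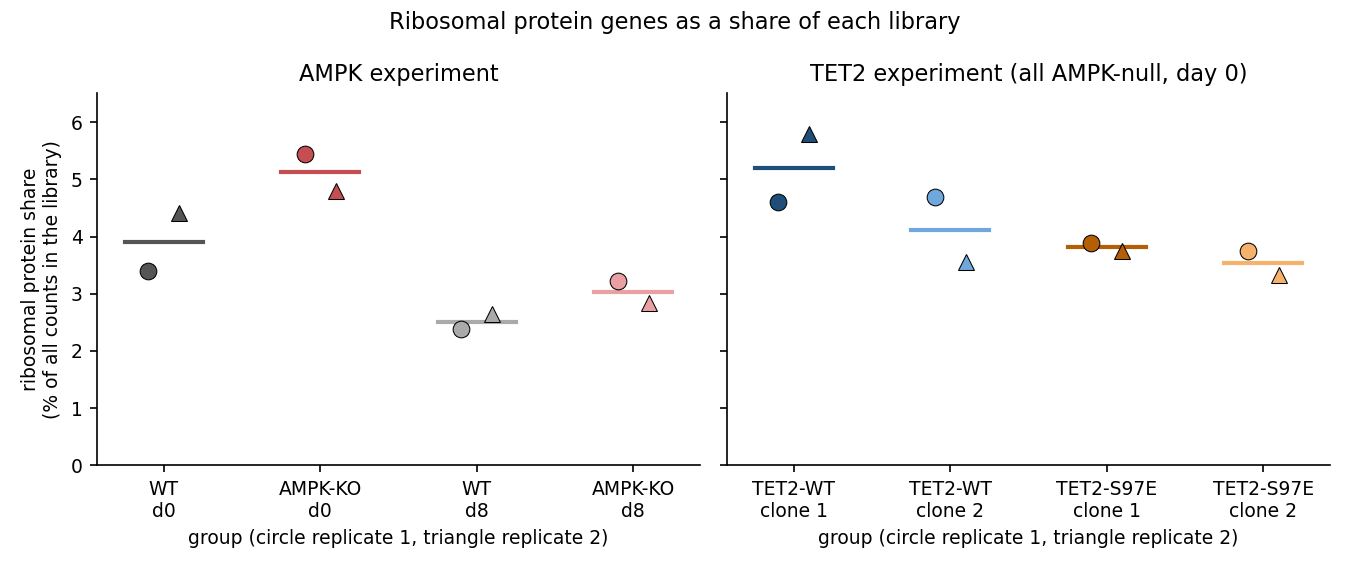
Share of all counts taken by the 86 ribosomal protein genes (y axis, percent) in each library, by group on the x axis, with circles for replicate 1, triangles for replicate 2 and lines for group means. The share lay between 2.38% and 3.22% in the d8 libraries and between 3.40% and 5.43% in the d0 libraries of the AMPK experiment, and the TET2 genotypes overlapped.

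The members moved together between replicates too, which limits what their number adds. In WT d0, 82 of the 83 tested genes were higher in replicate 2, with a median fold of 1.32 between the replicates. All 83 were higher in replicate 2 of TET2-WT clone 1 (median fold 1.30), and 80 were higher in replicate 1 of TET2-WT clone 2 (1.31). The replicates were closest in TET2-S97E clone 1, with a median fold of 1.06. Other properties of the libraries moved alongside. Protein-coding and other genes with under 1000 bases of exon, leaving out the family itself, took 1.19% and 1.38% of counts in WT d0, 1.44% and 1.46% in AMPK-KO d0, 0.987% and 0.999% in WT d8, and 1.23% and 1.13% in AMPK-KO d8. Mitochondrial transcripts took 1.36% and 0.568% in WT d0, 1.16% and 0.666% in AMPK-KO d0, 1.43% and 0.970% in WT d8, and 0.977% and 0.683% in AMPK-KO d8, so that the WT d0 replicates lay far apart. In the TET2 experiment they took 1.14%, 1.00% and 1.38% in the first 3 TET2-WT libraries, 2.14% in replicate 2 of TET2-WT clone 2, and 2.03% to 2.29% in TET2-S97E. Their part in the differences given here was not tested.

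Differentiation was the comparison in which the family differed most. In WT, all 83 tested genes had a lower estimate at d8 than at d0, with a median log2 fold change of −0.61, while over all 14329 genes tested the median was 0.01. Of the 83, 12 passed the threshold as lower and 0 as higher, where 6.58% of all genes were called lower and 5.78% higher. Complete separation of the 2 d8 from the 2 d0 libraries was seen for 79 of the 83 genes, against 30.2% of all genes in that direction. The median was −0.57 for the large and −0.65 for the small subunit.

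In AMPK-KO the same comparison gave a median of −0.69, with 82 estimates below 0 and Rpl24 above, at 0.13. Again 12 genes were called lower and 0 higher (4.95% of all genes were called lower and 4.81% higher), and 80 of the 83 were separated, against 28.9% of all genes. The medians were −0.68 for the large and −0.71 for the small subunit. Rpl12, Rpl13a, Rpl36a, Rps2, Rps27l and Rpsa were called in both lines.

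Rpl13a, a large subunit protein that is also known outside the ribosome as a regulator of inflammatory mRNA translation, changed most (7:45125558-45128761, minus strand, GRCm38). It stood at 32.3 and 42.6 CPM in WT d0 and 15.6 and 17.3 CPM in WT d8. In AMPK-KO it stood at 71.6 and 60.7 CPM at d0 and 27.9 and 23.7 CPM at d8. The days did not overlap in either line, with the shared sequence of this gene given above in view. The log2 fold change was −1.19 in WT (SE 0.21, adjusted p = 0.0173) by the edgeR quasi-likelihood test. In AMPK-KO it was −1.36 (SE 0.20, adjusted p = 0.0217).

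Among small subunit proteins, Rpsa, which also serves as a laminin receptor precursor (9:120127689-120132369, plus strand), stood at 1264 and 1603 CPM in WT d0 and 621 and 717 CPM in WT d8. Its AMPK-KO values were 1973 and 1659 CPM at d0 and 909 and 743 CPM at d8. The d8 libraries of each line lay below its d0 libraries, and the log2 fold changes were −1.10 (SE 0.22) and −1.14 (SE 0.22), with edgeR adjusted p = 0.0253 and 0.0283. Rps2, a protein of the mRNA entry channel (17:24718116-24721929, plus strand), stood at 454 and 686 CPM in WT d0, 276 and 314 in WT d8, 923 and 835 in AMPK-KO d0, and 393 and 376 in AMPK-KO d8. Its log2 fold changes were −0.95 and −1.19 (edgeR adjusted p = 0.0395 and 0.0281), with the copy count given above in view.

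The stalk proteins and their base had estimates below 0 in both lines, and not all were called. Rplp0, the stalk base (5:115559467-115563727, plus strand), stood at 1623 and 2173 CPM in WT d0, 974 and 1104 in WT d8, 2343 and 2038 in AMPK-KO d0, and 1288 and 1133 in AMPK-KO d8. Its log2 fold change was −0.87 in WT (edgeR adjusted p = 0.0447) and −0.86 in AMPK-KO, which missed the threshold (adjusted p = 0.0531). Rpl12, which binds beside it (2:32961559-32965345, plus strand), fell in both lines, by 0.90 and 0.96 on the log2 scale. Rplp1, a stalk tip protein, stood at 811 and 825 CPM in WT d0 and 489 and 534 in WT d8, and at 1388 and 1120 in AMPK-KO d0 and 691 and 552 in AMPK-KO d8. It was called in AMPK-KO (−1.01, edgeR adjusted p = 0.0291) and not in WT (−0.68, adjusted p = 0.0671). Rplp2, its partner, was called in neither line, with −0.57 in WT (edgeR adjusted p = 0.0941) and −0.75 in AMPK-KO (adjusted p = 0.0530). It stood at 347 and 428 CPM in WT d0, 242 and 280 in WT d8, 641 and 550 in AMPK-KO d0, and 377 and 332 in AMPK-KO d8, without overlap within a line.

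At the other end, Rpl22, a large subunit protein with a known role in lymphocyte development, had the smallest change in WT, with 235 and 249 CPM at d0 and 202 and 229 CPM at d8 (log2 fold change −0.17, SE 0.17). Rps27, a zinc-binding small subunit protein, had 206 and 300 CPM at d0 and 207 and 232 CPM at d8, and its days overlapped (−0.21, SE 0.24). In AMPK-KO the same genes stood at −0.31 and −0.32 on the log2 scale. Rps6, the small subunit protein phosphorylated downstream of mTORC1, had −0.65 in each line and was called in neither (edgeR adjusted p = 0.0785 and 0.0882). Rpl5 and Rpl11, which carry the 5S RNA and can bind Mdm2, stood at −0.62 and −0.51 in WT, also without a call. Their AMPK-KO values were −0.71 and −0.65.

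Across the 83 members the WT and AMPK-KO changes, which share no library, had a Pearson correlation of 0.78 and a Spearman correlation of 0.74, a description across genes of the same libraries. The spread was shared over the 8 libraries, and the count of calls depended on it. In WT, 42 genes were called without WT d0 replicate 1 and 0 without WT d0 replicate 2, while the medians were −0.81 and −0.38. Leaving out WT d8 replicate 1 or 2 gave 0 calls, AMPK-KO d0 replicate 1 or 2 gave 2, and AMPK-KO d8 replicate 2 gave 4. For AMPK-KO the calls numbered 0 without AMPK-KO d0 replicate 1, without its replicate 2 or without AMPK-KO d8 replicate 2, 3 without AMPK-KO d8 replicate 1, 1 without either WT d8 library, and 29 and 41 without WT d0 replicate 1 and replicate 2.

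**Figure D2:**
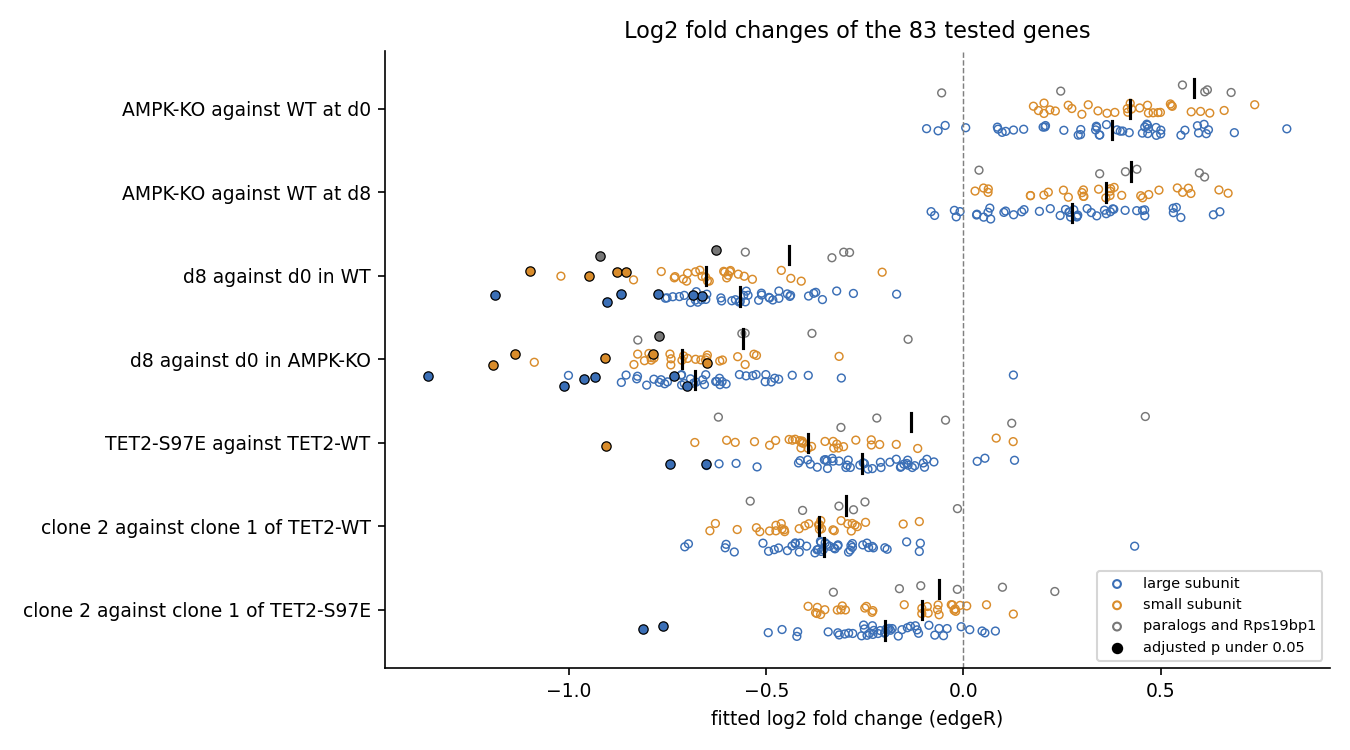
Fitted log2 fold change (x axis) of the 83 tested genes in each comparison (y axis), blue for the large subunit, orange for the small subunit and grey for paralogs and Rps19bp1, with filled points for adjusted p under 0.05 and black bars for medians. Both differentiation comparisons lie below 0 for 83 and 82 genes, and both AMPK-KO comparisons lie mostly above 0 without a call by edgeR.

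The family stood higher in AMPK-KO than in WT on both days, without a call by edgeR for any single member. The AMPK-KO cells were picked as clones, so the knockout and clonal origin cannot be told apart here. In the TET2 experiment, 2 clones of the TET2-WT genotype differed by a family median of −0.36. At d0, 79 of the 83 genes had an estimate above 0 in AMPK-KO, with a median log2 fold change of 0.42, where 49.7% of all genes were above 0 and the median was −0.00. The edgeR quasi-likelihood test called 0 of them, where it called 0.698% of all genes higher and 2.83% lower. At an unadjusted p under 0.05, 26 of the 83 were higher (8.03% of all genes were), and DESeq2 called 7 (2.59% of all genes). Separation of the AMPK-KO from the WT libraries was seen for 55 genes, 66.3% of the 83, against 23.7% of all genes in that direction. The small subunit had 31 of 31 estimates above 0 and the large subunit 43 of 46. In the same comparison the 8 myotube markers all had estimates below 0, with a median of −3.26 and 1 called lower. Of the 6 myoblast markers 5 were below 0, with a median of −0.59 and 1 called lower. The part of both lists in the higher level of the family was not tested.

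At d8 the median was 0.31 with 78 estimates above 0, beside a median of 0.04 for all genes. The edgeR test called 0 of the 83 (1.36% of all genes were called higher and 3.98% lower). At an unadjusted p under 0.05, 15 were higher (9.85% of all genes were), DESeq2 called 2 (3.87% of all genes), and 59 genes, 71.1%, were separated against 30.0% of all genes.

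The lowest p at d0 belonged to Rps19bp1, with 34.2 and 36.7 CPM in WT and 55.6 and 53.4 CPM in AMPK-KO. Its libraries did not overlap, and the log2 fold change of 0.62 (SE 0.14) had an edgeR adjusted p = 0.0672. Rpl13a followed at 0.82 (SE 0.20, adjusted p = 0.0801), and Rpl7l1, a paralog of Rpl7 known from ribosome assembly, at 0.68 (SE 0.18, adjusted p = 0.0976). Rpl7l1 stood at 128 and 166 CPM in WT d0, 237 and 233 in AMPK-KO d0, 113 and 125 in WT d8, and 165 and 195 in AMPK-KO d8, with no overlap on either day. At d8 the lowest p belonged to Rpl28, a large subunit protein of animals that is absent from budding yeast, with 207 and 241 CPM in WT and 355 and 340 CPM in AMPK-KO (0.63, SE 0.18, edgeR adjusted p = 0.0945).

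Some members did not share the shift. Rpl15 and Rpl9, both of the large subunit, had −0.09 and −0.06 at d0 and −0.07 and −0.08 at d8. Rpl22l1, the paralog of Rpl22, had −0.06 at d0, with 72.4 and 95.3 CPM in WT and 72.6 and 88.8 CPM in AMPK-KO, so that the groups overlapped. The correlation across members between the d0 and d8 differences, which share no library, was 0.76 (Pearson) and 0.75 (Spearman). The d0 difference rested on the WT d0 libraries, since its median was 0.21 without replicate 1 and 0.62 without replicate 2. A correction for exon length moved the median of all genes by 0.19 at d0 and 0.23 at d8, and relative to that median the members stood at 0.28 and 0.18.

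The AMPK-KO difference at d8 was also set against that at d0. The median of this interaction was −0.08, with 64 of 83 estimates below 0, and its sign was not stable. It was 0.13 without WT d0 replicate 1, −0.34 without WT d0 replicate 2, 0.02 without AMPK-KO d0 replicate 1, 0.04 without WT d8 replicate 2 and 0.00 with the correction for exon length. That correction put the median of all genes at 0.087. Relative to that median the members stood at −0.085, beside −0.121 in the main fit. No member was called by edgeR, 0 had an unadjusted p under 0.05 (2.96% of all genes were higher and 2.13% lower at that level), and DESeq2 called 0 (0.188% and 0.23% of all genes). Over all 14329 genes the edgeR test also called 0.0%.

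In the TET2 experiment the family was lower in TET2-S97E, with 76 of 83 estimates below 0 and a median of −0.31 beside 0.01 for all 13433 genes. The edgeR test called 3 members lower and 0 higher, where 3.28% of all genes were called lower and 3.71% higher, and separated libraries were seen for 10 genes, 12.05%, against 8.12% of all genes. Both counts are near their background. The median was −0.26 for the large and −0.39 for the small subunit, and over all members it was −0.10 without TET2-WT clone 1, −0.16 without only its replicate 2, −0.47 without TET2-WT clone 2 and −0.20 without TET2-S97E clone 2. Clones are nested within genotype, so the 4 libraries of a genotype are 2 clones.

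Rps27 and Rpl22, 2 of the 3 called members, were those with the smallest changes in WT differentiation, where Rps27 was −0.21 and Rpl22 −0.17. Rps27 (3:90212522-90213651, minus strand) stood at 312 and 406 CPM in TET2-WT clone 1, 324 and 219 in clone 2, 181 and 158 in TET2-S97E clone 1, and 179 and 153 in clone 2. Every TET2-S97E library lay below every TET2-WT library, and the log2 fold change was −0.91 (SE 0.18, edgeR adjusted p = 0.0209). The principal transcript of Rps27 shares 98.4% of its windows with Rps27rt, a copy with the same coding sequence, and Gm17241, although Rps27rt received 675 counts in the AMPK experiment against 45716 for Rps27.

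Rpl34, a protein of the large subunit (3:130726831-130730398, minus strand), stood at 386, 462, 418 and 321 CPM in TET2-WT and at 235, 229, 243 and 237 CPM in TET2-S97E. The groups were separated, and the log2 fold change was −0.75 (SE 0.13, edgeR adjusted p = 0.0143). Rpl22 (4:152325742-152334071, plus strand) stood at 365, 421, 379 and 286 CPM in TET2-WT and at 255, 234, 225 and 206 CPM in TET2-S97E, again without overlap (−0.65, SE 0.14, adjusted p = 0.0281). Its transcript shares no 100-base window with another gene.

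The calls depended on single libraries and on the unit of replication. There were 12 without TET2-WT clone 2 replicate 2, 1 without TET2-WT clone 1 replicate 1 and 0 without TET2-WT clone 2 replicate 1. With counts summed per clone, or with clone as a random effect in limma-voom, 0 members were called, where 0.0% and 0.558% of all genes were called lower. The direction held for Rps27, Rpl34 and Rpl22 in each of 25 alternatives, with log2 fold changes between −1.10 and −0.70, −0.84 and −0.65, and −0.77 and −0.53 in that order.

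Rpsa and Rps2, which had the largest falls in differentiation among called members beside Rpl13a, stood at the other end here. Rpsa stood at 1383, 1915, 1562 and 1066 CPM in TET2-WT and at 1735, 1558, 1730 and 1426 CPM in TET2-S97E. The groups overlapped, and the log2 fold change was 0.13 (SE 0.18, edgeR adjusted p = 0.743). For Rps2 it was 0.08 (adjusted p = 0.842), and for Rps6 it was −0.49 (adjusted p = 0.0818).

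**Figure D3:**
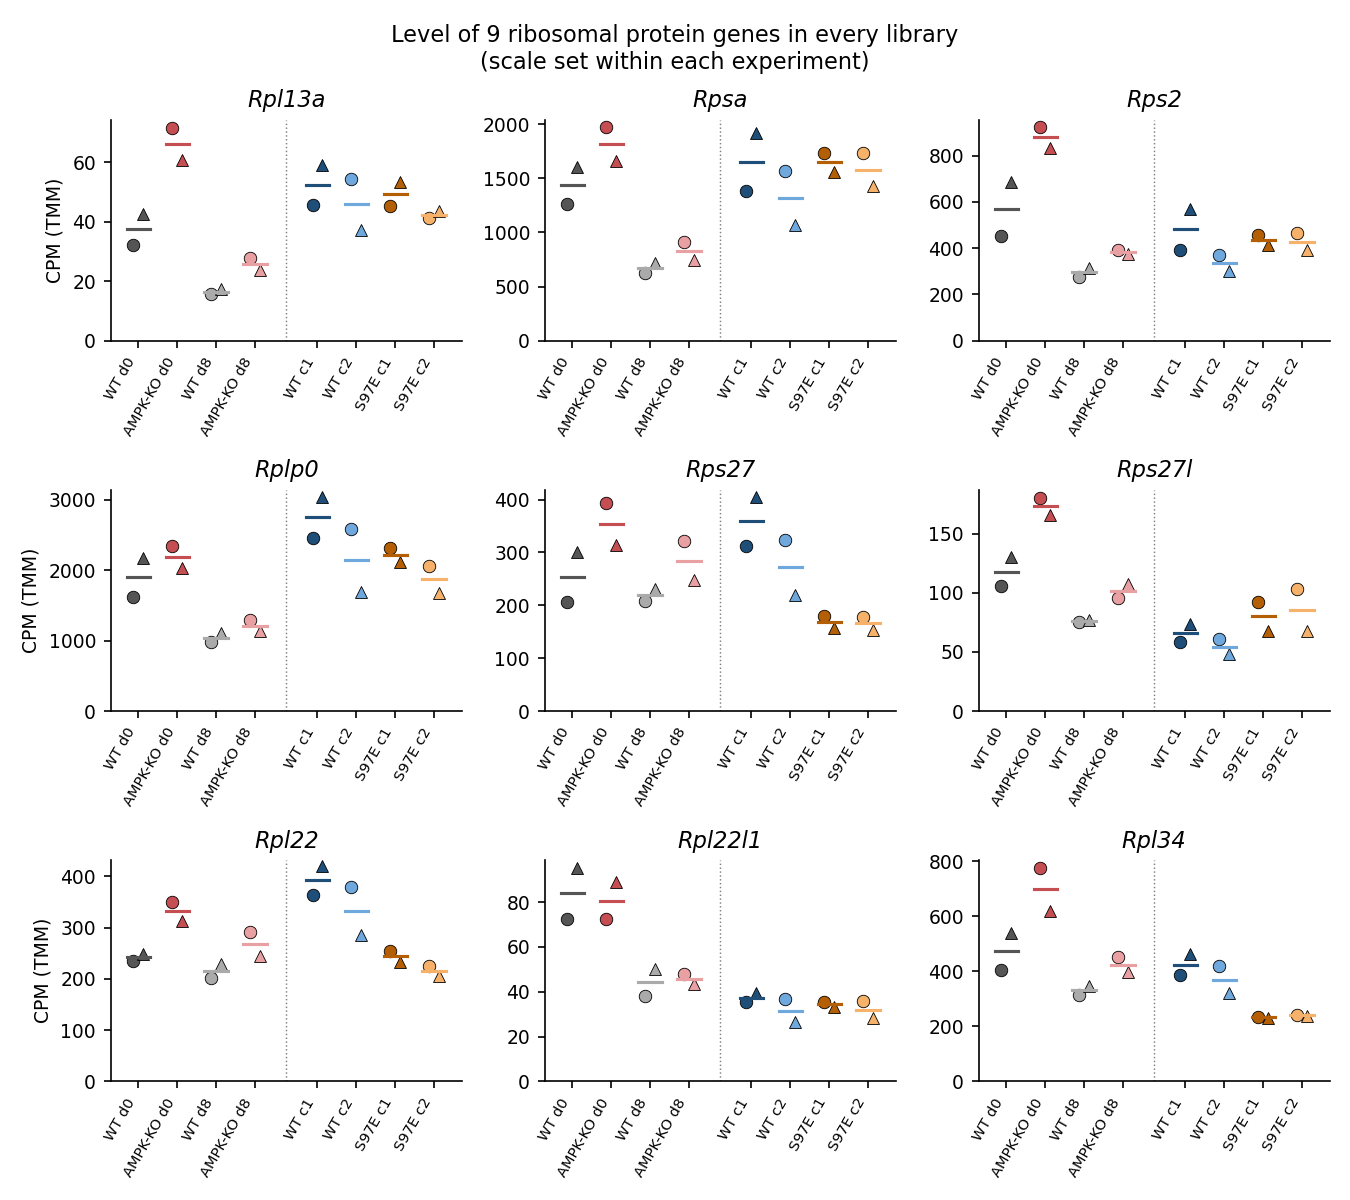
CPM (y axis, from 0) of 9 genes in each library, by group on the x axis, with circles for replicate 1, triangles for replicate 2, lines for group means and a dotted line between the experiments. Rps27 and Rpl34 in TET2-S97E lie below all TET2-WT libraries, with 153 to 181 against 219 to 406 CPM and 229 to 243 against 321 to 462 CPM, while Rpsa overlaps.

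The paralogs Rps27l and Rpl22l1 are known as alternatives to Rps27 and Rpl22, and their balance was read as a ratio within each library. Rps27l, described as a p53 target (9:66946086-66949516, plus strand), stood at 58.6, 73.5, 60.7 and 48.3 CPM in TET2-WT and at 92.0, 67.9, 103 and 67.9 CPM in TET2-S97E. These values overlapped, and the log2 fold change of 0.46 (SE 0.18) was not called (edgeR adjusted p = 0.157). The CPM ratio of Rps27l to Rps27 was 0.188, 0.181, 0.187 and 0.220 in TET2-WT and 0.509, 0.431, 0.579 and 0.443 in TET2-S97E. The ratio was separated between the genotypes in all 8 libraries, and its denominator was a gene already called.

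Rpl22l1 (3:28805436-28807424, plus strand) stood at 35.2, 39.4, 36.5 and 26.3 CPM in TET2-WT and at 35.5, 33.4, 35.7 and 28.3 CPM in TET2-S97E, which overlapped. Its ratio to Rpl22 was 0.0966, 0.0936, 0.0965 and 0.0918 in TET2-WT and 0.139, 0.143, 0.159 and 0.137 in TET2-S97E, also without overlap, and here too the denominator was a called gene. For Rpl36al beside Rpl36a and Rpl7l1 beside Rpl7 the ratios overlapped between the genotypes. No test was run on the ratios. The coding sequences of Rps27 and Rps27l were identical at 76.2% of positions and those of Rpl22 and Rpl22l1 at 67.5%.

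In the AMPK experiment the Rpl22l1 ratio was 0.308 and 0.382 in WT d0, 0.207 and 0.284 in AMPK-KO d0, 0.189 and 0.220 in WT d8, and 0.164 and 0.177 in AMPK-KO d8. It was lower at d8 in both lines and lower in AMPK-KO on both days. Rpl22l1 itself was called lower at d8 in WT, from 72.4 and 95.3 to 38.2 and 50.4 CPM (log2 fold change −0.92, SE 0.21, edgeR adjusted p = 0.0364). Rps27l was called lower in both lines, from 106 and 130 to 75.7 and 77.0 CPM in WT and from 180 and 166 to 96.0 and 107 CPM in AMPK-KO. Its log2 fold changes were −0.63 and −0.77 (edgeR adjusted p = 0.0459 and 0.0321). Its ratio to Rps27 lay between 0.434 and 0.529 at d0 and between 0.299 and 0.433 at d8.

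Clones of a single genotype were compared to show how far they lie apart. In TET2-WT, clone 2 had 82 of 83 estimates below clone 1, with a median log2 difference of −0.36, and edgeR called 0 members (0.394% of all genes were called lower and 0.463% higher). At an unadjusted p under 0.05, 20 were lower (9.77% of all genes were), DESeq2 called 2 (2.68% of all genes), and 28 genes, 33.7%, were separated against 27.8% of all genes. The median was −0.15 without clone 1 replicate 2 and −0.57 without clone 2 replicate 1. This median stands beside −0.31 between the genotypes, in a comparison that uses the same libraries. All 8 myotube markers had estimates above 0 in TET2-WT clone 2 against clone 1, with a median of 3.08 and 0 called. The part of these markers in the clone difference was not tested.

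In TET2-S97E, clone 2 had a median of −0.19 against clone 1, which was −0.33 without clone 2 replicate 1 and −0.09 without clone 2 replicate 2, and 2 large subunit genes were called lower and 0 higher (2.82% and 3.35% of all genes). Rpl37a, a zinc-binding protein, stood at 426 and 389 CPM in clone 1 and 243 and 221 CPM in clone 2 (−0.81, SE 0.19, edgeR adjusted p = 0.0385). Rpl31, which lies near the exit tunnel, stood at 508 and 502 CPM in clone 1 and 315 and 281 CPM in clone 2 (−0.76, SE 0.19, adjusted p = 0.0442). Both were separated, as were 48 of the 83 genes (57.8%, against 21.3% of all genes), and both calls were lost when any of the 4 TET2-S97E libraries was left out. Leaving out either TET2-WT clone 1 library left 1 call. Between these clones all 6 myoblast markers had estimates below 0, with a median of −1.50 and 5 called lower by edgeR. Of the 8 myotube markers 7 were below 0, with a median of −1.76 and 1 called lower. The part of these markers in the clone difference was not tested. Across members the clone differences of the genotypes had a Pearson correlation of 0.08.

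The TET2-S97E difference was also set beside the change in differentiation. Across the 83 genes the TET2-S97E difference and the WT d8 change, from separate experiments, had a Pearson correlation of −0.26 and a Spearman correlation of −0.15, and −0.24 and −0.25 for the AMPK-KO change. Without Rpl24 the Pearson correlations were −0.30 and −0.37. The myotube markers had a median log2 fold change of 4.63 in TET2-S97E, 5.96 in WT differentiation and 8.63 in AMPK-KO differentiation. In AMPK-KO d0 several of them were near the floor, with 4 and 3 counts for Myh3 and 4 and 0 for Ckm, while Acta1 had 240 and 63. Their sums at d8 were 2156 and 11942 CPM in AMPK-KO and 6387 and 9837 CPM in WT, which overlapped. The part of these markers in the ribosomal protein differences was not tested.

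**Figure D4:**
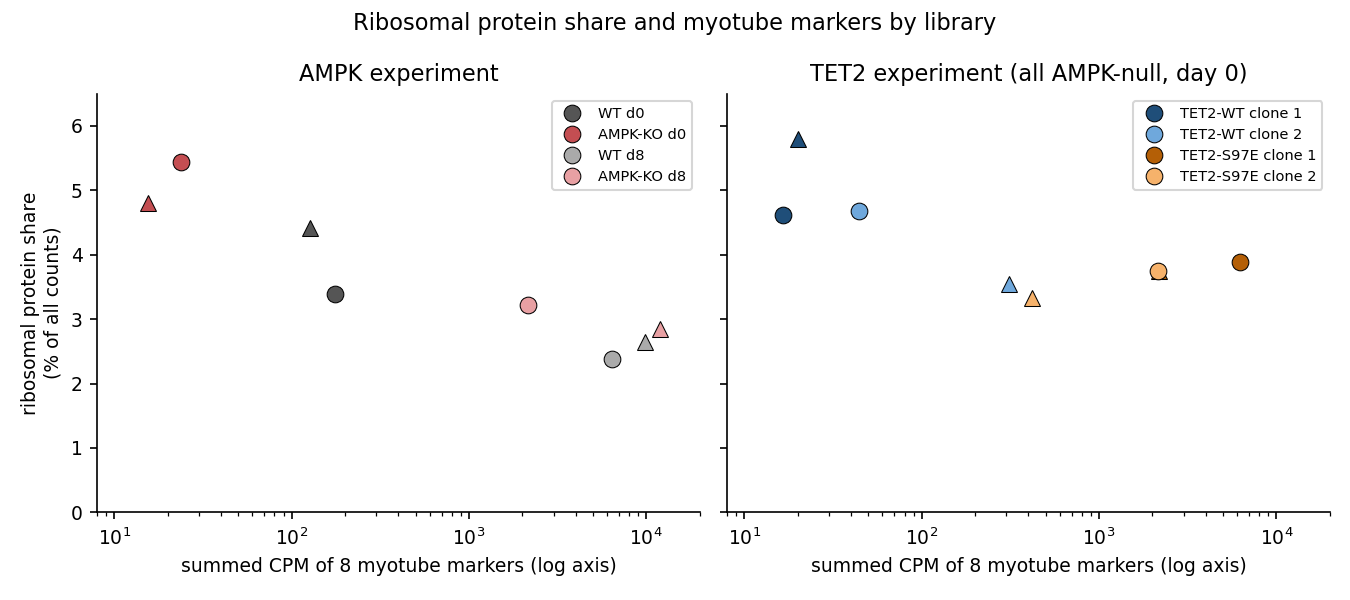
Ribosomal protein share of counts (y axis, percent) against the summed CPM of 8 myotube markers (x axis, log scale) in each library, by group, with circles for replicate 1 and triangles for replicate 2. In the AMPK experiment the 4 libraries at 2156 CPM or more have shares of at most 3.22%, and in the TET2 experiment TET2-S97E clone 1 replicate 1 at 6252 CPM has a share of 3.88% while TET2-WT clone 2 replicate 2 at 312 CPM has 3.55%.

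**Figure D5:**
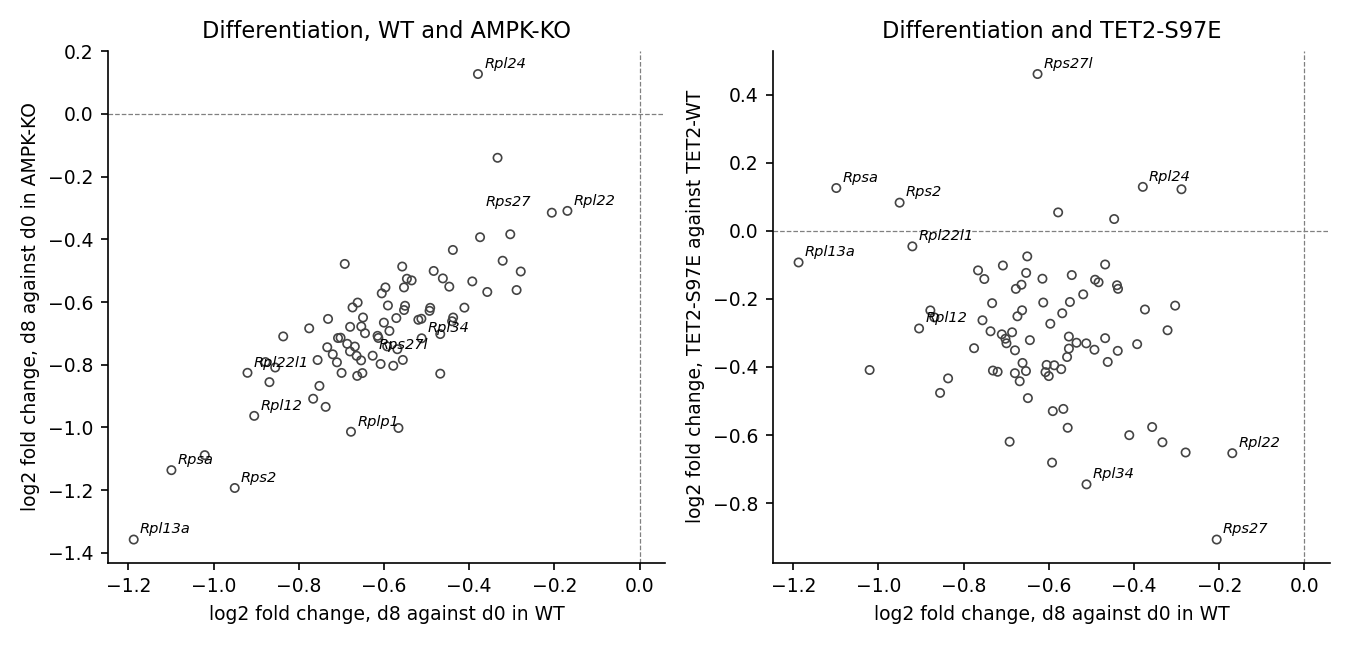
Log2 fold changes of the 83 tested genes at d8 in WT (x axis) against those in AMPK-KO (left, y axis) and against TET2-S97E (right, y axis), 1 point per gene. Rpl13a, Rpsa and Rps2 lie far to the left in both plots, but Rpsa and Rps2 stand above 0 for TET2-S97E, where Rps27 is lowest.

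Related gene groups were set beside the family. For these too, the calls in TET2-S97E treat the libraries of a clone as independent, and with counts summed per clone edgeR called 0 of 15126 genes. Of 52 ribosome biogenesis genes, which process and assemble ribosomal RNA, 51 had estimates above 0 in AMPK-KO at d0 (median 0.42) and 45 at d8 (0.22), with 0 called by edgeR, where 0.698% and 1.36% of all genes were called higher. In differentiation 5 were called lower in WT (median −0.39) and 6 in AMPK-KO (−0.57), where 6.58% and 4.95% of all genes were. The snoRNP methyltransferase Fbl stood at 66.1 and 91.0 CPM in WT d0 and 39.5 and 31.6 CPM in WT d8 (−1.14, edgeR adjusted p = 0.0238), and Nhp2, a box H/ACA protein, had −0.96 in WT and −1.10 in AMPK-KO. In TET2-S97E this group had a median of 0.07, with 34 estimates above 0 and 2 genes called higher (3.71% of all genes were). These were Rrp9 (0.68, edgeR adjusted p = 0.0235) and Bysl (0.62, adjusted p = 0.0316), both of the small subunit pathway.

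Of 19 elongation factors and other TOP mRNAs, 18 and 19 had estimates above 0 in AMPK-KO at d0 and d8 (medians 0.44 and 0.40), with 0 called by edgeR where 0.698% and 1.36% of all genes were called higher. In differentiation 4 were called lower in WT (median −0.48) and 6 in AMPK-KO (−0.55), beside 6.58% and 4.95% of all genes. Among them were Npm1, a nucleolar chaperone, at −1.32 and −1.47, Pabpc1, the poly(A)-binding protein, at −1.23 and −1.07, and Hnrnpa1 at −1.68 and −1.50. In TET2-S97E the median was −0.17, and Npm1 (−0.67, edgeR adjusted p = 0.0398) and the snoRNA host Gas5 (−0.56, adjusted p = 0.0466) were called lower, where 3.28% of all genes were. Npm1 stood at 1092, 1105, 992 and 704 CPM in TET2-WT and 628, 589, 666 and 556 CPM in TET2-S97E, without overlap.

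The 17 genes of the mTORC1 pathway and of TOP control, a list that holds activators and inhibitors, had medians of 0.15 and 0.01 in AMPK-KO at d0 and d8, 0.11 and 0.02 in differentiation, and −0.01 in TET2-S97E. Between the TET2-S97E clones 15 of the 17 were below 0, with a median of −0.17 and 0 called, where 46.5% of all genes were below 0 and 2.82% were called lower. The transcription factor Myc was the 1 gene of the list called lower in TET2-S97E (−0.75, edgeR adjusted p = 0.0392, where 3.28% of all genes were called lower), from 45.7, 51.7, 70.6 and 41.4 CPM to 31.9, 31.1, 35.5 and 26.1 CPM. The kinase of elongation factor 2, Eef2k, was called higher there (0.49, adjusted p = 0.0491, beside 3.71% of all genes), and the mTORC1 inhibitor Tsc2 was called higher at d8 in WT (0.53, adjusted p = 0.0487, beside 5.78%). Of the 77 mitochondrial ribosomal protein genes tested, the medians were 0.28 and 0.16 in AMPK-KO at d0 and d8, −0.25 and −0.38 in differentiation, −0.04 in TET2-S97E and −0.38 between the TET2-WT clones.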

How the data were processed

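The deposited values are raw counts per gene. Per the labels, the authors trimmed reads with Trim Galore 0.4.5, aligned them to mm10 with STAR 2.5.3a and made the count tables with featureCounts 1.5.3, from total RNA depleted of ribosomal RNA. How strand and reads with several matches were counted is not given in the sources used here, so members with near-identical copies are uncertain. Symbols came from GENCODE M21, which held 49326 of the 49585 identifiers.

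Genes passing filterByExpr were tested within each experiment by the edgeR 4.0.16 quasi-likelihood test (R 4.3.3) with TMM factors, 1 mean per group (per genotype for TET2-S97E against TET2-WT), and Benjamini-Hochberg adjustment over all genes tested. A gene was called at an adjusted p under 0.05. Levels in CPM used TMM factors, and levels in TPM used the exon length of M21. A gene counted as separated when no library of the groups compared overlapped. Alternatives used DESeq2 1.42.0, limma 3.58.1, other scalings and filters, a loess correction for exon length, and left out each library. No libraries were duplicates. The procedure was tested on simulated data.

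The members and gene lists were chosen with earlier results of these data known. Genes were named by a rule: the paralogs with their parents, up to 5 called members per direction and comparison with the largest change or else those of lowest p, the 5 highest and lowest by TPM, Rps6, Rpl5, Rpl11, Rplp0, Rplp1, Rplp2 and Rpsa, up to 3 called genes of each other list, and the edited genes and markers. Rps2 in the TET2-S97E comparison was named after its values were seen. Promoter windows are from RefSeq GRCm38.p6.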

Additional observations from a re-analysis of the deposited data

Results flagged for a closer look

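Of 52 checks for a library far from the other 3 of its genotype in the TET2 experiment, 2 were positive, and chance gives about 1 in 20. Rpl24 stood at 0.887 CPM in TET2-WT clone 2 replicate 2, against 0.544 to 0.595 CPM in the other TET2-WT libraries, and rests on 12 to 25 counts per library. Rpl36al, the paralog of Rpl36a, stood at 137 CPM in TET2-S97E clone 2 replicate 1, against 102 to 106 CPM in the other TET2-S97E libraries.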

How the results depend on the processing

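The direction of the members' median held in every alternative of 7 comparisons, and the interaction alone changed sign, in 4 settings. Among these was the loess correction for exon length, under which the members' median stayed below that of all genes, by 0.085. The counts of called members moved far more. For AMPK-KO at d0 they were 7 by DESeq2, 4 without a filter on low counts and 1 with the replicate block and loess correction for exon length. At d8 they were 2 by DESeq2 and 3 with the block and loess. For differentiation in WT they were 37 by DESeq2, 38 with loess, 26 without a filter, 1 from the compared libraries alone and 39 with the block and loess, with medians of −0.83 under both loess settings. Loess without the block put the median of all genes at −0.16. Relative to that median the members stood at −0.67, beside −0.62 in the main fit. For AMPK-KO differentiation the counts of calls were 62 by DESeq2, 22 with loess, 25 with the block and loess, 47 without a filter, 24 with at least 10 counts in every library, 25 without TMM factors and 2 from the compared libraries alone. For TET2-S97E they were 11 by DESeq2, 8 without TMM factors, 0 per clone, 0 with clone as a random effect, and 0, 1, 0 and 8 without TET2-S97E clone 1, TET2-S97E clone 2, TET2-WT clone 1 (median −0.10) and TET2-WT clone 2. Between TET2-WT clones they were 2 by DESeq2, 3 without a filter and 2 with the block and loess, and between TET2-S97E clones 1 with loess and 1 without TMM factors. The share in TET2-S97E clone 1, 3.82%, was 3.93% with pseudogenes and 3.998% of nuclear protein-coding counts. The causes were not tested.

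Leaving out each library in turn gave 0 to 42 calls in WT differentiation (medians −0.81 to −0.38), 0 to 41 in AMPK-KO differentiation, 0 to 12 in TET2-S97E and 0 to 2 between TET2-S97E clones. The median ranged from 0.21 to 0.62 for AMPK-KO at d0, from −0.34 to 0.13 for the interaction and from −0.57 to −0.15 between TET2-WT clones. Among 158 pairs of a named gene and a comparison, none changed direction past the threshold. With the replicate block alone the calls were 13 in WT and 18 in AMPK-KO differentiation, 3 in TET2-S97E, 2 between TET2-S97E clones and 0 elsewhere. The log2 difference between replicates 1 and 2 of a group was correlated across genes with that of each other group. This correlation was 0.119 to 0.324 in the AMPK experiment and −0.0214 to 0.506 in the TET2 experiment. With only 2 numbers and no label of a shared batch, replicates of the same number were not taken as pairs. With 2 libraries per group, or 2 clones per TET2 genotype, a shift of the whole family smaller than the spread between replicates may have been missed.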

Other observations

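Rps27l is counted among the targets of p53, and 14 other p53 targets were read beside it. In TET2-S97E 12 of the 14 had estimates above 0, with a median log2 fold change of 0.64 beside 0.01 for all genes, and 4 were called higher (3.71% of all genes were). The cell cycle inhibitor Cdkn1a stood at 142, 169, 149 and 233 CPM in TET2-WT and 754, 684, 498 and 308 CPM in TET2-S97E, without overlap (log2 fold change 1.70, edgeR adjusted p = 0.0117). Eda2r, a receptor of the TNF family, had 1.54 (adjusted p = 0.0154), and Aen, an apoptotic nuclease, had 0.64 (adjusted p = 0.0219). With counts summed per clone, edgeR called 0 of 15126 genes.

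Cdkn1a is also a gene of muscle differentiation, and it was called higher at d8 in WT (1.88, edgeR adjusted p = 0.0149) and in AMPK-KO (1.89, adjusted p = 0.0217). Bax, a p53 target that promotes cell death, was called lower at d8 in both (−0.72, adjusted p = 0.0336, and −0.89, adjusted p = 0.0254). The list as a whole had medians of 0.11 and 0.53 in these comparisons. In WT 1 of its genes was called higher and 1 lower (5.78% and 6.58% of all genes were). In AMPK-KO 3 were called higher and 2 lower (4.81% and 4.95% of all genes). In AMPK-KO at d0 the median of the list was −0.12, and Plk2, a stress-induced kinase, was called lower (−1.36, edgeR adjusted p = 0.0370, where 2.83% of all genes were called lower).

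The 31 proteasome subunit genes, another large complex made in fixed proportions, had medians of 0.17 and 0.20 in AMPK-KO at d0 and d8, −0.26 and −0.28 in differentiation and 0.08 in TET2-S97E. Between the TET2-WT clones all 31 estimates were below 0, with a median of −0.37 and 0 called, where 50.3% of all genes were below 0 and 0.394% were called lower. Of 280 pseudogenes named after ribosomal proteins, 53 passed the filter in the AMPK experiment, with medians of 0.43 and 0.32 in AMPK-KO and −0.57 and −0.69 in differentiation. In TET2-S97E 47 were tested, with a median of −0.37.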
